A study of Mus musculus with 64 samples.

Results

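The genes described here encode the secreted and membrane-bound cues that steer growing axons, together with their receptors: the semaphorins with plexins and neuropilins, the ephrins with Eph receptors, the Slits with Robo receptors, and the netrins with Unc5 receptors. Members were taken by symbol, as every protein-coding gene of classes 3 to 7 of the semaphorins, the A to D plexins, the A and B ephrins and Eph receptors, Slit1 to Slit3, the Robos, the netrins, Unc5a to Unc5d, and both neuropilins. This gave 68 of the 32227 genes in the hippocampal count table. All 68 passed the filter on low counts, which left 17382 genes for testing.

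The libraries came from total RNA of whole hippocampus of 8 inbred mouse strains, with both sexes, as 16 groups of 4, which makes 8 libraries per strain. The strains were the laboratory strains C57BL/6J, 129S1/SvImJ, NOD/ShiLtJ, A/J and NZO/HlLtJ and 3 derived from wild mice, WSB/EiJ, PWK/PhJ and CAST/EiJ, written here with a slash in every name. No treatment and no engineered allele is given in the labels, and they give no age. The sample titles begin with numbers that run in blocks by strain and sex, from 311 to 462. The CAST/EiJ females stand apart from these, at 639 to 643. What the numbers stand for is not stated, and anything that goes with them cannot be told apart from strain. Nothing in the labels says that the libraries of a group came from separate animals, so the p-values measure the spread between these libraries.

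Guidance cues act at short range on cell surfaces or as secreted gradients, and a growth cone turns toward or away from them according to the receptors it carries. Semaphorins bind plexins, with neuropilins as co-receptors for most secreted class 3 members; ephrins and Eph receptors signal in both directions where cells touch; Slits repel axons that carry Robo receptors; and netrins attract or repel according to whether the axon carries Dcc alone or also Unc5. In the adult hippocampus many of these genes remain expressed, where they are known for roles at dendritic spines, in mossy fibre targeting and in synaptic plasticity.

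Total counts ran from 16607602 to 27759221 per library. Markers of CA1, CA2 and CA3 pyramidal cells and of dentate granule cells were present in every library, with summed levels of 598 to 1232, 335 to 530 and 402 to 683 CPM (counts scaled to library size). Markers of choroid plexus, a tissue beside the hippocampus, varied from 18.3 to 4903 CPM. A total of 4 libraries correlated less with the other libraries of their group than the rest did: C57BL/6J male 4, 129S1/SvImJ female 1, NOD/ShiLtJ female 1 and A/J male 2. Without them the same 9 members were called among strains as with them.

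Most guidance genes differed among the strains by small amounts. Here a gene is called among strains when edgeR's quasi-likelihood F test gave an adjusted p under 0.05 (Benjamini-Hochberg over all 17382 genes) and its 8 strain means of log2 CPM spanned a range of at least 1, which is a doubling. By this rule 9 of the 68 members were called (13.2%), against 26.3% of all genes tested. When only genes with a mean of at least 50 counts were tested, 8 of 65 members and 1686 of 13117 genes were called. Those shares were close to each other, so the gap depended on including genes with lower counts. Without the minimum on the range 65 of 68 passed (95.6%), against 89.2% of all genes. The median range was 0.49 for the members and 0.54 for all genes tested. In bulk RNA, fewer cells of a type and less RNA per cell cannot be told apart.

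The 9 called members were the secreted semaphorins Sema3d, Sema3b and Sema3f, the transmembrane semaphorin Sema5b, the netrins Ntn4 and Ntn5, the receptor Robo3 and the Eph receptors Epha10 and Epha1. Thus 3 of 7 class 3 semaphorins, 2 of 4 netrins and 1 of 4 Robos were called. So were 2 of 9 EphA receptors and 1 of 13 other semaphorins. The roles were not compared at like levels of expression. None of the 9 plexins, 2 neuropilins, 8 ephrins, 5 EphB receptors, 3 Slits and 4 Unc5 receptors was called with the minimum on the range, although 8 plexins, both neuropilins, 7 ephrins, all 5 EphB receptors, 2 Slits and all 4 Unc5 receptors passed the F test without it. The largest ranges below the minimum were those of Sema3g (0.95), Unc5d (0.89), Efna1 (0.88) and Epha6 (0.87), and the smallest above it was that of Epha1 (1.08).

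**Figure D1:**
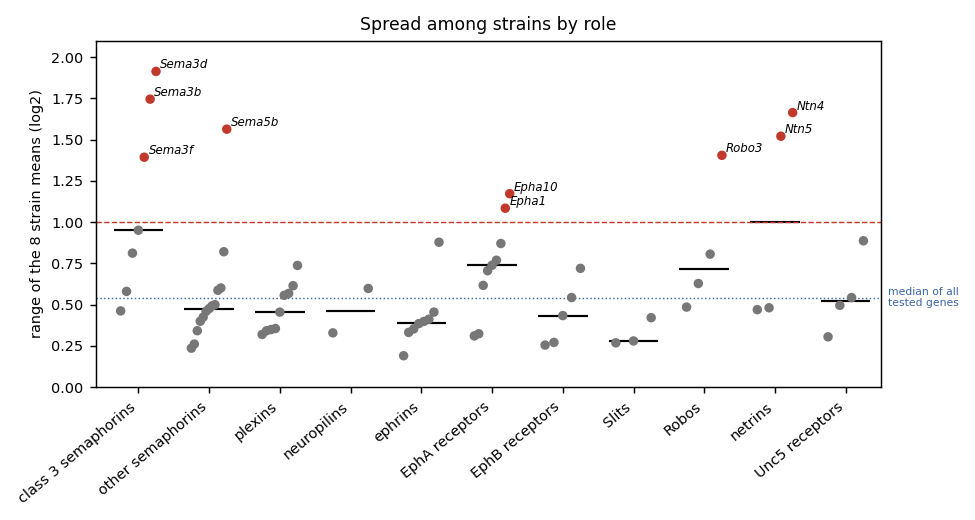
Range of the 8 strain means (log2 CPM, vertical axis) for each of the 68 genes, grouped by role on the horizontal axis; red points are the 9 called genes, short black lines are the median of each role, the dashed line is the minimum of 1 and the dotted line is the median of all tested genes (0.54). Class 3 semaphorins (median 0.95) and netrins (median 1.0) lie higher than the Slits (median 0.28). The called class 3 semaphorins and netrins had means of 4.29 to 9.30 CPM, and the Slits 47.8 to 222 CPM. The roles were not compared at like levels of expression.

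**Figure D2:**
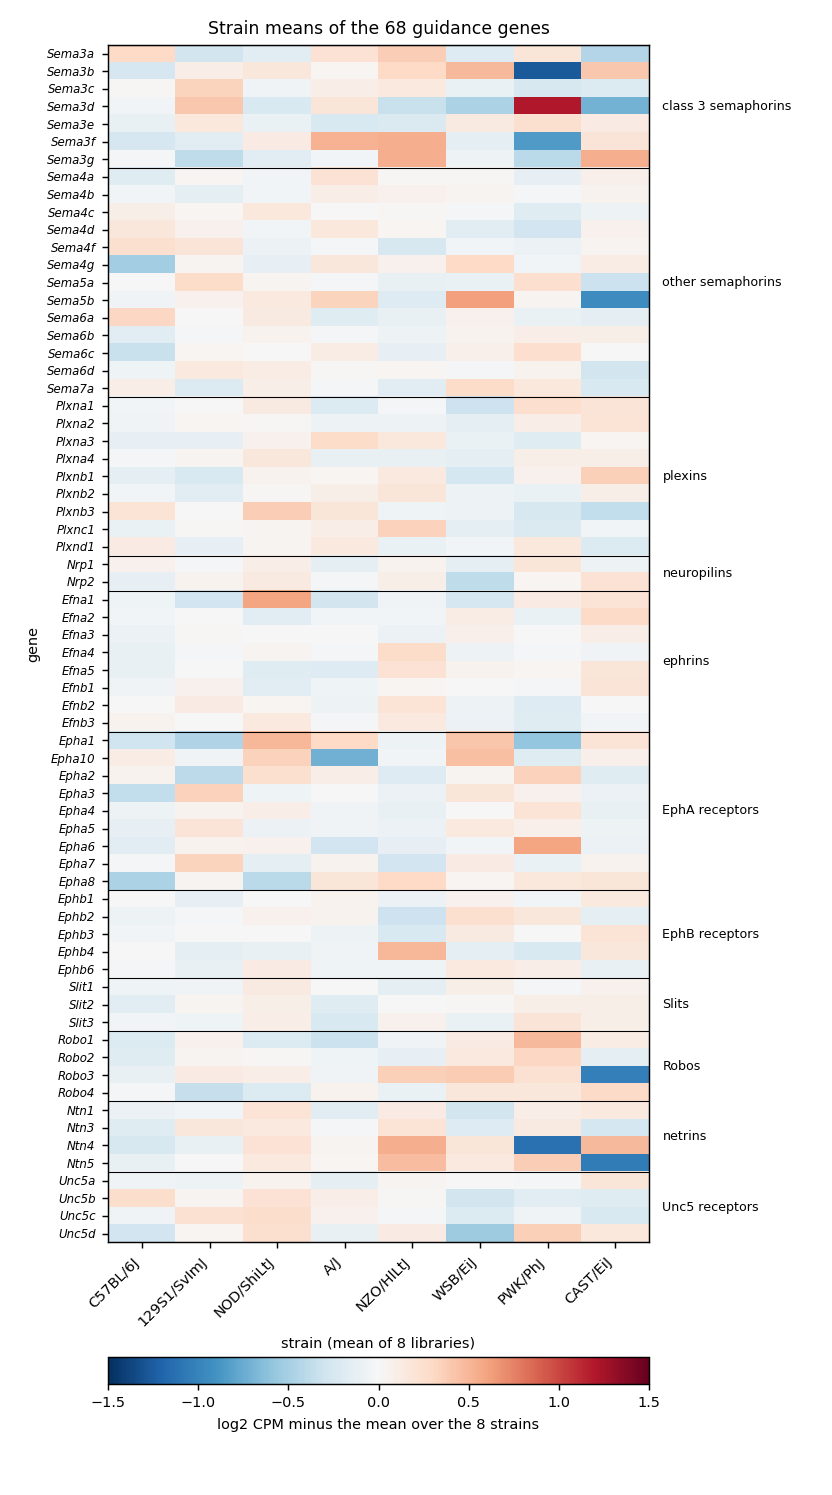
Strain means of the 68 genes, as log2 CPM minus the mean over the 8 strains (red higher, blue lower), with genes in rows by role and strains in columns. The strongest red cell is Sema3d in PWK/PhJ, and the strong blue cells are Ntn4 and Sema3b in PWK/PhJ and Robo3, Ntn5 and Sema5b in CAST/EiJ.

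Sema3d, a secreted semaphorin, had the widest range of the 68 (1.91) and was high in a single strain. In PWK/PhJ its lowest, median and highest levels over the 8 libraries were 15.3, 19.1 and 25.8 CPM. In the 56 libraries of the other strains they were 3.38, 7.35 and 13.8 CPM. Every PWK/PhJ library therefore lay above every library of another strain, which was so for 2.09% of all genes tested. The lowest strain was CAST/EiJ, at 3.38, 5.55 and 6.5 CPM, and next came WSB/EiJ at 4.74, 5.77 and 7.45 CPM. The libraries of these low strains overlapped. Against the mean of the other 7 strains, Sema3d was higher in PWK/PhJ by 1.38 on the log2 scale (SE 0.0652, adjusted p = 4.33e-26). It was the single member of 68 called higher in that strain (1.47%, against 3.75% of all genes). Below the fold minimum of 1 it was higher in 129S1/SvImJ by 0.47 (SE 0.0708, adjusted p = 2.53e-07), where the levels were 8.15, 11.4 and 13.8 CPM, and lower in CAST/EiJ (log2 change -0.81, SE 0.0813, adjusted p = 9.58e-13). PWK/PhJ differed by at least a doubling from C57BL/6J, NOD/ShiLtJ, A/J, CAST/EiJ, NZO/HlLtJ and WSB/EiJ in the pairwise tests, and not from 129S1/SvImJ. Within strains, its level correlated with the summed CA2 and CA3 markers at r = -0.58 over the 64 libraries, and with the choroid plexus markers at r = -0.14. The median of the summed CA2 and CA3 markers was lowest in PWK/PhJ (375 CPM), where Sema3d was highest, and highest in WSB/EiJ (475 CPM) and CAST/EiJ (425 CPM), where Sema3d was lowest. NZO/HlLtJ went the other way. Its marker median of 379 CPM was close to that of PWK/PhJ, but its mean Sema3d level was low (2.76 log2 CPM, against 4.30 in PWK/PhJ). The points of the within-strain correlations share depth and strain centring, and the part of cell composition in the strain difference was not tested. With the choroid plexus markers as a covariate the range was 1.90.

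Sema3b and Sema3f, secreted semaphorins that act through neuropilins, with Sema3f acting through Nrp2, were lowest in PWK/PhJ. Sema3b ran from 0.570 through a median of 1.32 to 5.27 CPM in PWK/PhJ, and from 1.60 through 4.48 to 12.2 CPM in the other 56 libraries. The groups overlapped. The difference was -1.33 on the log2 scale (SE 0.333, adjusted p = 0.000617), and all 7 other strains differed from PWK/PhJ in the pairwise tests. Sema3f stood at 1.40, 1.93 and 3.76 CPM in PWK/PhJ, against 3.97, 5.48 and 7.98 CPM in A/J and 4.15, 5.34 and 8.62 CPM in NZO/HlLtJ. No PWK/PhJ library reached the lowest A/J or NZO/HlLtJ library. A/J and NZO/HlLtJ were picked as the strains with the highest means, and the share of all genes separated in this way was not counted. Sema3f in PWK/PhJ against the mean of the others was -0.99 (SE 0.2, adjusted p = 3.17e-05), just under the fold minimum.

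Ntn4, a laminin-related netrin of basement membranes, was also lowest in PWK/PhJ. Its levels in PWK/PhJ were 3.01, 3.78 and 5.86 CPM, in CAST/EiJ 9.48, 12 and 14.6 CPM, and in NZO/HlLtJ 10.9, 12.5 and 14.9 CPM. The PWK/PhJ libraries lay below every library of CAST/EiJ and NZO/HlLtJ, and overlapped with C57BL/6J, whose lowest library had 5.50 CPM. Here too the strains with the highest means were picked, without a count of all genes so separated. The difference of PWK/PhJ from the other 7 was -1.29 on the log2 scale (SE 0.0895, adjusted p = 8.55e-19). Ntn4 and Sema3b were thus 2 members called lower in PWK/PhJ (2.94% of 68, against 5.6% of all genes). Without PWK/PhJ female 2, the PWK/PhJ library with the most choroid plexus signal, Sema3f and Epha1 were called too, and the members called in PWK/PhJ in either direction went from 3 (background 9.35%) to 5. Ntn4 was higher in NZO/HlLtJ by 0.62 (SE 0.0720, adjusted p = 2.89e-10) and in CAST/EiJ by 0.56 (SE 0.0724, adjusted p = 1.6e-09), both below the fold minimum. Among the members, Sema3b had the strain means most like those of Ntn4 (r = 0.95 over 8 strains, 0.69 over 64 libraries). The value over 64 libraries was not centred on strain. Both r values include the low level in PWK/PhJ.

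Choroid plexus markers moved with these genes. The 10 markers (Ttr, Folr1, Kl, Kcnj13, Clic6, Otx2, Aqp1, F5, Slc4a5 and Kcne2) were summed, and 1 of these 10 was at 0 in some library. By strain the median of the summed level was 98.4 CPM in PWK/PhJ (range 18.3 to 1849) and 66.3 CPM in A/J (27.4 to 3156). It was 1812 CPM in CAST/EiJ (18.6 to 4853) and 892 CPM in NZO/HlLtJ (56.1 to 4132). A/J did not follow this order. Its marker median was the lowest of the strains, but its mean Sema3f was 2.53 log2 CPM, against 1.16 in PWK/PhJ. Its means were 2.07 against 0.78 for Sema3b and 3.14 against 1.98 for Ntn4. Within strains, over 64 libraries, the log2 sum correlated with Sema3b at r = 0.88, with Sema3f at r = 0.76, with Plxnb2, a plexin, at r = 0.64, with Ntn4 at r = 0.54 and with Epha1 at r = 0.45. No other member exceeded 0.5 in either direction. Sema3b also correlated with the striatal list (r = 0.84), the meningeal list (r = 0.77) and the ependymal list (r = 0.67). The gene with the highest median was Ppp1r1b in the striatal list (50.1 CPM) and Igf2 in the meningeal list (84.0 CPM, range 14.5 to 270). Whether these correlations are separate from that with choroid plexus was not tested. In the PWK/PhJ library with the most choroid plexus signal, Sema3b stood at 5.27 CPM; in that with the least, at 0.570 CPM. With the mean of the log2 choroid plexus levels as a covariate, the range of strain means fell from 1.75 to 1.2 for Sema3b. It fell from 1.39 to 1.22 for Sema3f and from 1.66 to 1.56 for Ntn4. The adjusted p of the F test among strains went from 0.0124 to 2.3e-06 for Sema3b. For Sema3f it went from 1.36e-05 to 4.98e-09, and for Ntn4 from 1.8e-19 to 4.13e-20. The PWK/PhJ difference became -0.87 for Sema3b, below the fold minimum, and -1.21 for Ntn4. Whether the amount of choroid plexus in each dissection accounts for any part of these differences was not tested.

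**Figure D3:**
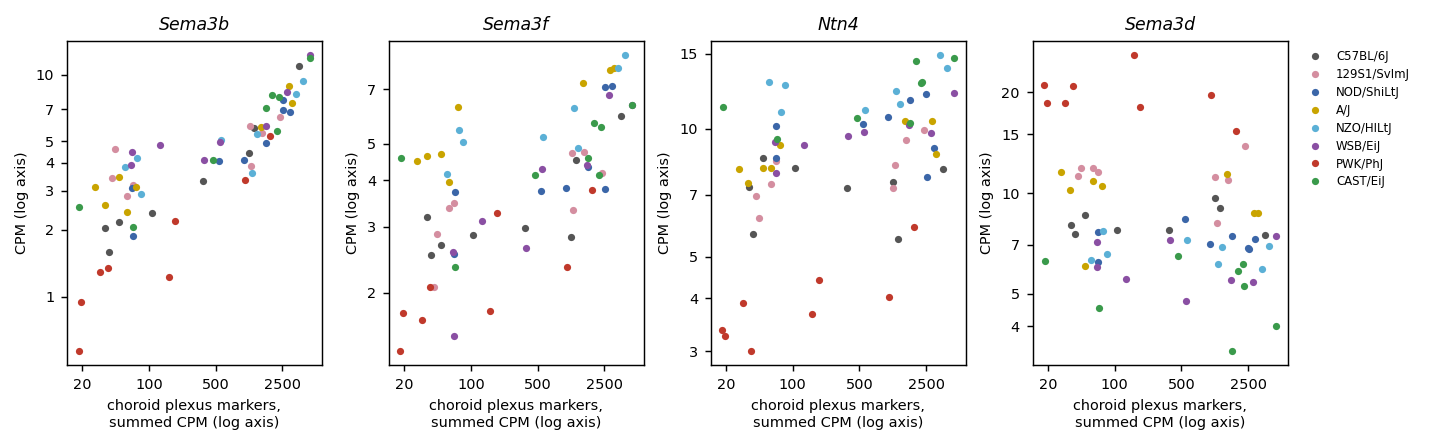
Level (CPM, log axis) of Sema3b, Sema3f, Ntn4 and Sema3d in each of the 64 libraries against the summed level of the 10 choroid plexus markers (CPM, log axis), coloured by strain. Sema3b and Sema3f are higher in libraries with more of the markers (within-strain r 0.88 and 0.76), while for Sema3d (r -0.14) the PWK/PhJ libraries stand above the rest at any marker level.

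CAST/EiJ had less of Robo3, Ntn5 and Sema5b than the other strains. Robo3 is the divergent Robo family member needed for commissural axons to cross the midline, Ntn5 is a netrin family member, and Sema5b is a transmembrane semaphorin with thrombospondin repeats that is known to lower synapse number in hippocampal neurons. These were the 3 members of 68 called lower in CAST/EiJ (4.41%, against 5.22% of all genes tested), and none was called higher (background 4.02%). The genes lie on different chromosomes, 9, 7 and 16.

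Robo3 stood at 3.4, 4.66 and 5.30 CPM in CAST/EiJ and at 6.63, 10.3 and 16 CPM in the 56 other libraries. Sema5b stood at 6.46, 8.85 and 10.9 CPM, against 12, 17.6 and 29.6 CPM. Both genes were lower in all 8 CAST/EiJ libraries than in any other library, which held for 1.62% of all genes tested. Ntn5 stood at 1.41, 2.81 and 4.02 CPM in CAST/EiJ, against 3.97, 6.57 and 9.60 CPM, so the highest CAST/EiJ library lay just above the lowest of another strain. Against the other 7 strains the differences were -1.19 for Robo3 (SE 0.107, adjusted p = 1.73e-14), -1.18 for Ntn5 (SE 0.118, adjusted p = 7.37e-13) and -1.08 for Sema5b (SE 0.0672, adjusted p = 8.91e-21). CAST/EiJ was low in both sexes, with Robo3 at 4.75 ± 0.463 CPM in females and 4.20 ± 0.704 CPM in males (SD, n = 4), and Sema5b at 8.60 ± 1.03 and 8.51 ± 1.83 CPM.

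The 3 genes had their lowest strain in common and otherwise differed in their order. Robo3 and Ntn5 were the most alike of any pair with either gene (r = 0.96 over 8 strain means, 0.71 over 64 libraries). The member most like Sema5b was Robo3 (r = 0.80 and 0.70). The values over 64 libraries were not centred on strain. Each of these r values includes the low level in CAST/EiJ by which the genes were grouped. The highest strain was WSB/EiJ for Robo3 and Sema5b and NZO/HlLtJ for Ntn5. Sema5b in WSB/EiJ stood at 19.9, 25.3 and 29.6 CPM, higher than the other 7 by 0.71 (SE 0.0559, adjusted p = 3.93e-16), and its WSB/EiJ libraries overlapped with those of A/J (16.7, 20.5 and 23.9 CPM). Ntn5 in NZO/HlLtJ stood at 7.09, 8.29 and 9.18 CPM. CAST/EiJ also had the lowest summed interneuron markers, with a median of 880 CPM against 958 to 1109 CPM in the other strains. It also had the highest median of the choroid plexus markers, the highest of the CA1 markers (1014.3 CPM, against 658.9 to 928.1) and the lowest of the oligodendrocyte markers (3426 CPM, against 3464 to 5518), and its astrocyte median of 5178 CPM was below only that of NZO/HlLtJ (5233 CPM). With the choroid plexus covariate the CAST/EiJ differences were -1.16 for Robo3, -1.16 for Ntn5 and -1.07 for Sema5b. The part of interneuron, CA1, oligodendrocyte and astrocyte content was not tested. Whether reads were aligned to a C57BL/6J genome or to a genome of each strain is not stated by the labels, and its part in the CAST/EiJ and PWK/PhJ differences was not tested.

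**Figure D4:**
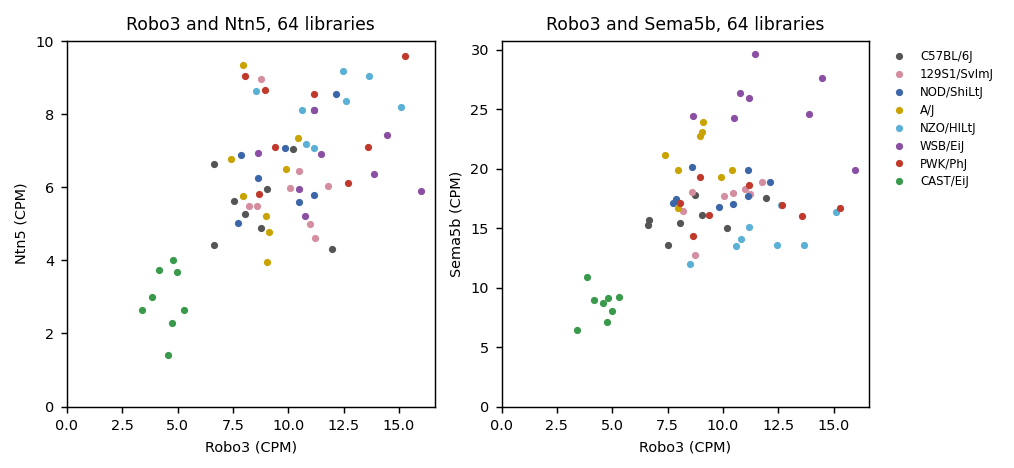
Ntn5 (left) and Sema5b (right) against Robo3 in the 64 libraries (CPM on both axes, linear), coloured by strain. The 8 CAST/EiJ libraries lie together at the lower left of both panels, with Robo3 at 5.30 CPM or less.

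The promoters of these 3 genes and of Sema3d are shown because the former were called lower in CAST/EiJ and the latter was called higher in PWK/PhJ. Each is the RefSeq sequence of build GRCm38.p6, 250 bases before to 50 after the annotated start, in the gene's own direction. It is the reference sequence of C57BL/6J, and the other strains' sequences were not analysed here. Motifs were searched on both strands, and capitals mark 5 of them. The GC box is GGGCGG, and the second motif is the CCAAT box. The letters of the TATA box were taken as TATAAA. One form of E-box is CACGTG, and the core bound by many homeodomain factors is TAATTA.
Robo3 promoter, chr9:37433126-37433425, minus strand: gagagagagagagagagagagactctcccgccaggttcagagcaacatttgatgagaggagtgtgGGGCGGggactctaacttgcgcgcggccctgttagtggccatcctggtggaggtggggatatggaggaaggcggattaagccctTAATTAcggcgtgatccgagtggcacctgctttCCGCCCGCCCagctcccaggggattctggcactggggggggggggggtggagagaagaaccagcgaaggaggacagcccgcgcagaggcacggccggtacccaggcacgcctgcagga
Ntn5 promoter, chr7:45683772-45684071, plus strand: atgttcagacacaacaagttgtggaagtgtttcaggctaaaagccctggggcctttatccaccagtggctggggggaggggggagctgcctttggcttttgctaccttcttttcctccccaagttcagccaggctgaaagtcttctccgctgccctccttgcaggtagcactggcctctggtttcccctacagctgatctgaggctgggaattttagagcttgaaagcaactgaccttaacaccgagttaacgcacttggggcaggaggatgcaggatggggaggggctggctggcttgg
Sema5b promoter, chr16:35541112-35541411, plus strand: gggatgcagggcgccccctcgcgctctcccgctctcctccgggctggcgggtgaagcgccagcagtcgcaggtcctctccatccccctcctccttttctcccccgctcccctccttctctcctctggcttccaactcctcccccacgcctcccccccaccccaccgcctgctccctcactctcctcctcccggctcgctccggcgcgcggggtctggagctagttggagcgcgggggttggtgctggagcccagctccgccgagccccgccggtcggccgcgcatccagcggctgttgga
Sema3d promoter, chr5:12382916-12383215, plus strand: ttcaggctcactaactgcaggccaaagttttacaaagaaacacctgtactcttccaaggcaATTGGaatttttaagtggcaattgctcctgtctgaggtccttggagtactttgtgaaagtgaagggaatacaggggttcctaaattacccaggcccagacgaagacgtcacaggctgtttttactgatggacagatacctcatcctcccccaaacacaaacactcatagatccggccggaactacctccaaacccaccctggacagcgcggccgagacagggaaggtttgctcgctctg

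Robo3 held GGGCGG 3 times, read from both strands and with a pair overlapping, and TAATTA once. Sema3d held CCAAT once, as ATTGG on the shown strand. Ntn5 and Sema5b held none of the 5 in this window. The general E-box CANNTG, left in lower case, occurred 2 times in Robo3, 3 times in Ntn5, 3 times in Sema3d and not in Sema5b. Sema5b had the highest GC content of the 4 (73.0%) and Sema3d the lowest (49.7%). The median over all promoters was 52.7%. Promoters of 59 of the 68 members were found, 75 in all, as some genes have several starts. Of these, 70.7% held GGGCGG, against 35.7% of all 32851 promoters in the table; 28% held CCAAT against 37.4%, 2.67% held TATAAA against 13.6%, 6.67% held CACGTG against 7.15%, 4% held TAATTA against 5.29%, and 50.7% held CANNTG against 72.3%. The set of all promoters was not limited to genes tested here, and the shares were not compared at like GC content. A match in this window is a description of letters and no evidence of binding.

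Among the Eph receptors, Epha10, whose kinase domain is thought to be inactive, was low in A/J and high in WSB/EiJ and NOD/ShiLtJ. Its levels were 14.5, 17.1 and 21.2 CPM in A/J, 30.7, 35.8 and 41.9 CPM in NOD/ShiLtJ, and 35, 39.2 and 40.7 CPM in WSB/EiJ. The other 7 strains began at 22.7 CPM, so all 8 A/J libraries lay below them, which held for 0.121% of all genes tested in A/J. The A/J difference of -0.82 (SE 0.0476, adjusted p = 1.45e-21) was below the fold minimum, and the pairwise differences from NOD/ShiLtJ (NOD/ShiLtJ minus A/J 1.07, SE 0.0590) and WSB/EiJ (A/J minus WSB/EiJ -1.17, SE 0.0591) were above it. Epha1, with 0.0450 to 0.782 CPM over the 64 libraries the lowest level per kilobase of any member, ranged from 0.158 CPM (median) in PWK/PhJ to 0.405 CPM in NOD/ShiLtJ. Those strains overlapped, the F test gave an adjusted p of 5.39e-05, and the call was lost without PWK/PhJ female 1 or without PWK/PhJ male 1 (range 0.97 at the lowest), and with the choroid plexus covariate (0.84).

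**Figure D5:**
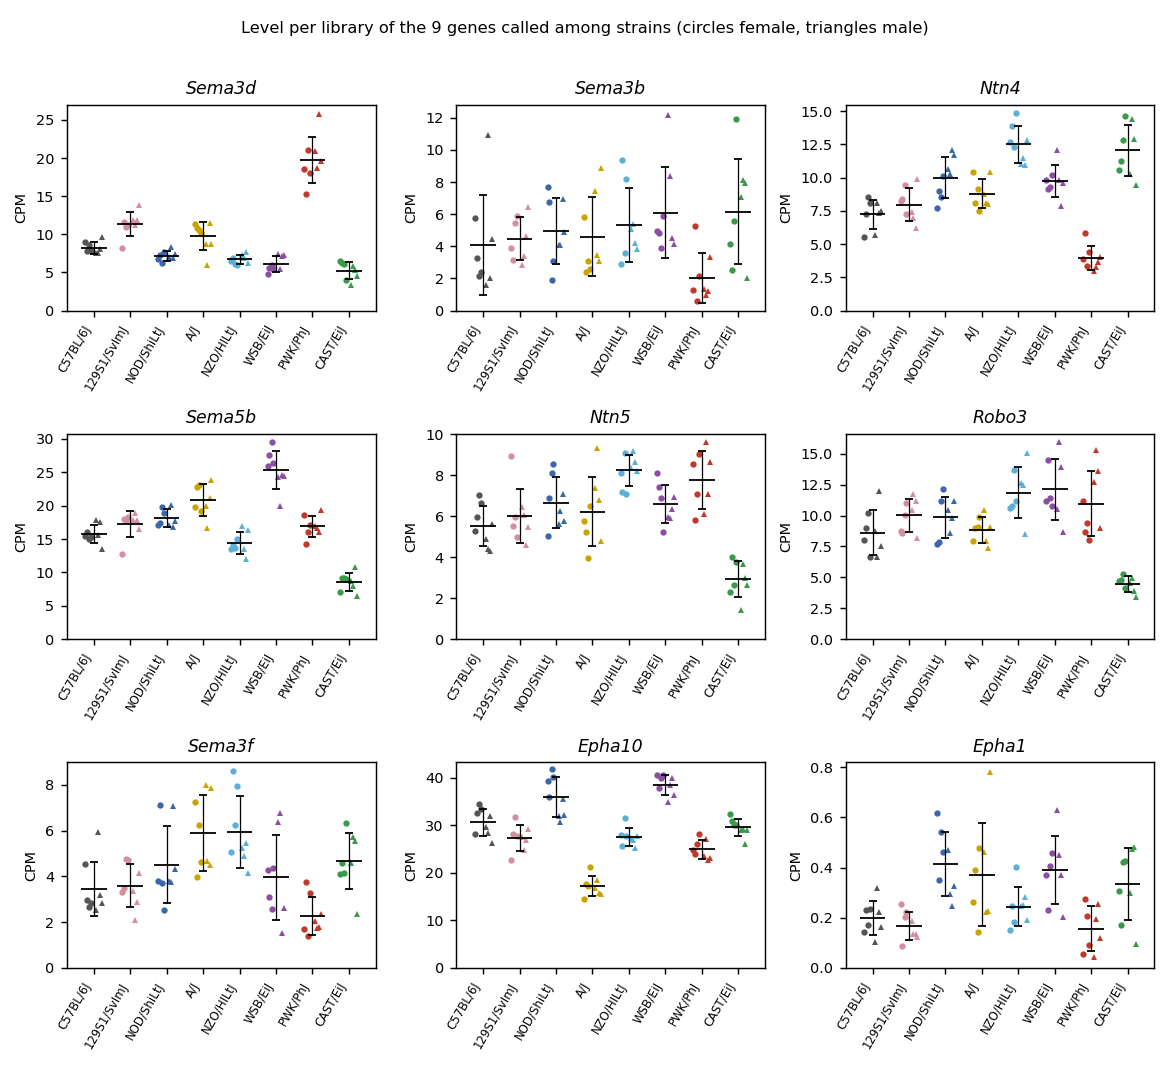
Level in each of the 64 libraries (CPM, linear axis from 0) of the 9 genes called among strains, with circles for females and triangles for males; black lines are the mean of the 8 libraries of a strain and bars its SD. PWK/PhJ stands above the rest for Sema3d, CAST/EiJ stands below it for Robo3 and Sema5b, and A/J stands below it for Epha10.

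None of the other Eph receptors and ephrins reached the minimum range of 1. Epha4, the receptor known for mossy fibre and spine roles through ephrin A3 on astrocytes, had the highest level per kilobase of exon of any member (50.4 CPM per kb) and a range of 0.32 among strains. Its medians ran from 370 CPM in NZO/HlLtJ to 478 CPM in PWK/PhJ, with overlapping libraries. Epha5, an EphA receptor of forebrain neurons, had the smallest range in its class (0.31). Epha6, which also belongs to the EphA class, reached 57.4, 91.9 and 123 CPM in PWK/PhJ and was higher there by 0.66 (SE 0.154, adjusted p = 0.00027), and it was among the members that varied most within strains (SD 0.45 on the log2 scale). Among the EphB receptors, which bind B ephrins, Ephb2 was lower in NZO/HlLtJ (log2 difference -0.36, SE 0.0468, adjusted p = 8.6e-09) and Ephb4, best known from veins, was higher there by 0.56 (SE 0.0802, adjusted p = 5.82e-08). Ephb6, a kinase-inactive receptor, had the highest level of its class per kilobase and the smallest range (0.26). Efna1, an A ephrin, was higher in NOD/ShiLtJ by 0.69 (SE 0.0592, adjusted p = 9.54e-15), at 6.52, 7.52 and 10.5 CPM, against 2.96, 4.88 and 7.45 CPM in the other 56 libraries. Efnb3, the B ephrin with the highest level per kilobase among the ephrins (46.4 CPM per kb), had a range of 0.33. Efna3 had the smallest range of all 68 (0.19), and Efna4, with a median of 0.5 CPM, did not pass the F test (adjusted p = 0.671).

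Among the other semaphorins, Sema7a, a GPI-anchored semaphorin, had the highest level per kilobase (40.2 CPM per kb) and was higher in WSB/EiJ by 0.31 (SE 0.0381, adjusted p = 9.79e-10). Sema4g was lowest in C57BL/6J (log2 difference -0.60, SE 0.0526, adjusted p = 2.17e-14), at 16.4, 18.3 and 19.6 CPM against 19.1, 27.7 and 34.9 CPM elsewhere. The highest C57BL/6J library thus lay just above the lowest library of another strain. Sema3e, the ligand of Plxnd1, had the highest level per kilobase among class 3 semaphorins and the smallest range (0.46). Sema3g, a class 3 semaphorin known from endothelium, was higher in CAST/EiJ by 0.63 (SE 0.0710, adjusted p = 3.69e-11) and in NZO/HlLtJ by 0.62 (SE 0.0710, adjusted p = 1.67e-10), and it correlated with the endothelial and mural markers within strains (r = 0.57). The median of those markers was highest in NZO/HlLtJ (339 CPM), but in CAST/EiJ (274 CPM) it was below those of C57BL/6J (333 CPM), PWK/PhJ (316 CPM) and WSB/EiJ (310 CPM). Sema5a, a relative of Sema5b, had the strain means most like those of Sema3d (r = 0.86) and a range of 0.60, with its high in 129S1/SvImJ. Sema4b had the smallest range of its class (0.24).

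No plexin, neuropilin or Unc5 receptor reached the minimum range of 1. Plxna1, the plexin with the highest level per kilobase (23.2 CPM per kb), was higher in PWK/PhJ by 0.29 (SE 0.0620, adjusted p = 8.13e-05) and lower in WSB/EiJ (log2 difference -0.36, SE 0.0656, adjusted p = 8.87e-06). Plxna4, which with neuropilins forms receptors for class 3 semaphorins, did not pass the F test (adjusted p = 0.152). Plxnb1, a receptor for Sema4d, was higher in CAST/EiJ by 0.40 (SE 0.0382, adjusted p = 1.11e-13), at 135, 147 and 155 CPM against 81.6, 112 and 143 CPM. Plxnb3, an oligodendrocyte-lineage plexin, correlated with the oligodendrocyte markers within strains at r = 0.74. It was lower in CAST/EiJ (log2 difference -0.41, SE 0.0796, adjusted p = 1.24e-05), where the summed oligodendrocyte markers had a median of 3426 CPM against 5518 CPM in NOD/ShiLtJ, the strain with its highest level. Whether the share of oligodendrocyte RNA accounts for this was not tested. Nrp2, the receptor component for Sema3f, was lower in WSB/EiJ (log2 difference -0.43, SE 0.0613, adjusted p = 4.08e-08), and Nrp1, the component for Sema3a, had a range of 0.33. Unc5d, a netrin receptor, was lower in WSB/EiJ (log2 difference -0.61, SE 0.0920, adjusted p = 2.29e-07), at 18.6, 22.4 and 28.7 CPM, and Unc5a, the member with the third highest level per kilobase (43.3 CPM per kb), had a range of 0.31.

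The Slits had the lowest median range of the roles (0.28). Slit1 had the highest level per kilobase of the Slits (37.5 CPM per kb) and a range of 0.28, Slit2 had 0.27, and Slit3 did not pass the F test (adjusted p = 0.0825). Robo1, a Slit receptor, was higher in PWK/PhJ by 0.56 (SE 0.0710, adjusted p = 1.75e-09), with 78.2, 93.0 and 116 CPM against 32.1, 63.6 and 82.9 CPM, and Robo2, the other main Slit receptor, was higher there by 0.35 (SE 0.0615, adjusted p = 2.39e-06). Ntn3, a netrin, had the smallest range of its class (0.47). Robo4, an endothelial Robo, was lower in 129S1/SvImJ (log2 difference -0.41, SE 0.0587, adjusted p = 9.58e-08).

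In the 6 strains other than CAST/EiJ and PWK/PhJ no member was called against the other 7 strains, and none had a log2 difference of 1 or more at any p. At an unadjusted p under 0.05, 27 members differed in C57BL/6J, 27 in 129S1/SvImJ, 33 in NOD/ShiLtJ, 26 in A/J, 35 in NZO/HlLtJ and 36 in WSB/EiJ, at any size. These were 39.7%, 39.7%, 48.5%, 38.2%, 51.5% and 52.9% of the members, against 45.5%, 40.8%, 47.1%, 42%, 45.6% and 49.4% of all genes. DESeq2 called none there either. The background of calls in these strains was 3.85%, 3.64%, 3.91%, 3.58%, 3.65% and 4.95% of all genes in the same order. With no fold minimum, members passed in every strain. C57BL/6J had 8 higher and 16 lower (background 20.4% and 17.6%), 129S1/SvImJ 11 and 12 (17.6% and 14.7%), NOD/ShiLtJ 17 and 10 (21.4% and 18.2%) and A/J 11 and 10 (19.1% and 14.7%). CAST/EiJ had 18 and 17 (28.3% and 28.5%), PWK/PhJ 22 and 18 (28.9% and 28.8%), NZO/HlLtJ 17 and 11 (21.8% and 16.2%) and WSB/EiJ 16 and 12 (22.3% and 20%).

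All 28 pairs of strains were also compared for each member. Of 1904 member and pair tests, 48 were called (2.52%, against 7.87% over all genes), all from the 9 members above. This share of all genes includes genes with low counts, as do the shares given for single strains. Neither was counted at a mean of at least 50 counts. Epha1 gave 8, Sema3b and Sema3d 7 each, Ntn4 and Ntn5 6 each, Robo3 5, Sema5b 4, Sema3f 3 and Epha10 2. Epha1 had a mean of only 6.4 counts per library. Pair calls use the log2 change of the fit, whereas the range uses log2 CPM with prior count 2. For Epha1, 129S1/SvImJ and A/J were called although their means on that scale were -1.99 and -1.23, less than 1 apart. Each call counts for both of its strains. PWK/PhJ took part in 28 of the 48 (58.3%), CAST/EiJ in 21 (43.8%) and C57BL/6J in 3 (6.25%). Over all genes the same strains took part in 36.1%, 36.1% and 21.1% of the pair calls, so PWK/PhJ and CAST/EiJ led there as well.

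Females and males did not differ past the threshold in any of the 68 members by edgeR (0 of 68, background 0.167%), with 2 at an unadjusted p under 0.05 (2.94%, against 5.3% of all genes). Every female minus male difference was under 0.2 on the log2 scale and every 95% interval within 0.5 of zero. Epha10 was higher in females by 0.11 (SE 0.0290, adjusted p = 0.11), in 8 of 8 strains, with means of 30.2 and 27.8 CPM, and DESeq2 called it (adjusted p = 0.0451). The edgeR count also became 1, with Epha10 called, without 129S1/SvImJ female 1, 129S1/SvImJ female 4 or A/J female 1, and without the 4 libraries that stand apart. Plxnd1 was lower in females (log2 difference -0.16, SE 0.0405, adjusted p = 0.113). The interaction of strain and sex passed for none (background 0.046%), with 6 at an unadjusted p under 0.05 (8.82%, against 10.7% of all genes) and a smallest adjusted p of 0.337, and DESeq2 also called none.

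Partners and downstream genes were counted from a pair of lists. The shares of all genes given beside them include genes with low counts. The lists were not counted at a mean of at least 50 counts. Of 29 tested co-receptors and adhesion molecules, 2 were called (6.9%, against 26.3% of all genes) and 25 passed without the fold minimum (86.2%, against 89.2%). Met, the HGF receptor that can pair with plexin B1, was high in PWK/PhJ at 17.5, 21.3 and 23.6 CPM against a lowest median of 5.64 CPM in CAST/EiJ (range 1.84). Draxin, a secreted repellent that binds Dcc, ranged from a median of 0.511 CPM in PWK/PhJ to 1.58 CPM in NZO/HlLtJ (range 1.63), the strains that were also at the ends for Ntn4. Of 45 effectors 1 was called (2.22%, against 26.3%) and 40 passed without the minimum (88.9%, against 89.2%). Dpysl2, the semaphorin mediator CRMP2, stood at 244, 276 and 318 CPM in PWK/PhJ, above every library of the other strains, whose highest library had 191 CPM (range 1.65). In PWK/PhJ such a separation held for 2.09% of all genes tested.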

How the data were processed

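RNA of the hippocampus was sequenced in 64 libraries. The authors deposited raw counts per gene, whole numbers with no normalization, in a single table. Reads were processed against GRCm39, per the submitters' processing notes; the table's label names Ensembl release 105. Aligner, counter and use of strand: not given in the sources used here; therefore overlapping antisense genes cannot be separated. Columns were matched to samples by name. Symbols, gene types and exon lengths came from GENCODE M21 (99.7% of identifiers matched).

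Counts were fitted with edgeR 4.0.16 in R 4.3.3: a filterByExpr filter (minimum count 10 and total 15, by the 16 groups), TMM scaling, 16 group means and a robust quasi-likelihood fit with 48 residual degrees of freedom, checked on simulated data. The tests were strain with 7 degrees of freedom, every strain set against the other 7 on average, 28 strain pairs, sex, and the interaction. P-values were adjusted by Benjamini-Hochberg over 17382 genes. Strain calls needed an adjusted p under 0.05 and a log2 difference or range of at least 1 (log2 CPM with prior count 2 for the range), and sex and interaction calls had no fold minimum. Levels are CPM with TMM factors, given as lowest, median and highest library. Within-strain correlations use values centred on strain means. Alternatives were other filters, DESeq2 size factors, DESeq2 1.42.0, an additive model, a choroid plexus covariate, and leaving out libraries.

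The rule for named genes took called members, the 4 largest called changes per strain, the member with the highest level per kilobase and the one with the smallest range in each role, the member most like each of the 5 with the widest range, and the 3 widest-ranging called genes of the pathway lists. Sema3g, Unc5d, Efna1, Epha6, Sema4g, Ephb2, Ephb4, Plxnb1, Plxnb2, Plxnb3, Plxnd1, Slit3, Efna4, Robo1 and Robo4 were named after their values were seen. The members and lists were chosen with earlier results of these data known.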

Additional observations from a re-analysis of the deposited data

Results flagged for a closer look

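Among the 9 called members, each strain's 8 libraries were checked for a library far from the others by the gap to its nearest neighbour over the range of the group (Dixon's 95% critical value), and 4 of 72 groups passed. Chance passes about 1 in 20 groups. Sema3b stood at 10.9 CPM in C57BL/6J male 2, with the next library at 5.74 CPM. Sema5b stood at 12.8 CPM in 129S1/SvImJ female 1, with the next at 16.5 CPM, and Ntn5 stood at 8.96 CPM in the same library, with the next at 6.45 CPM. That library is one of the 4 that stand apart from their group. Epha10 stood at 31.5 CPM in NZO/HlLtJ female 3, with the next at 28 CPM.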

How the results depend on the processing

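No result reversed direction. The same 9 members were called among strains with no filter on low counts, with DESeq2 size factors, with DESeq2, with an additive model and without the 4 libraries that stand apart. A mean of at least 50 counts left 65 members and 8 calls, against 1686 calls in 13117 genes. The choroid plexus covariate left 8 member calls, and both settings were without Epha1. Without the fold minimum, calls rose by construction to 65 among strains, 24 in C57BL/6J, 23 in 129S1/SvImJ, 27 in NOD/ShiLtJ, 21 in A/J, 35 in CAST/EiJ, 40 in PWK/PhJ, 28 in NZO/HlLtJ, 28 in WSB/EiJ and 805 over the pairs. Members called by sex went from 0 to 1 with DESeq2 and to 1 without the 4 libraries; the cause was not tested. Leaving out each library in turn gave 8 to 10 calls among strains, 3 to 5 in PWK/PhJ, 3 in CAST/EiJ, 0 to 1 by sex, and 0 in the other strains and for the interaction. The 28 pairs were not run there. No paired analysis was possible because the labels give no replicate numbers, and those used here only follow deposition order. Epha1 and Efna4, under 1 CPM in every library, are the members most limited by depth.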
